A study of Mus musculus with 24 samples.

Results

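Whole-kidney transcript levels of 9 mouse genes were followed, whose human counterparts are mutated in polycystic kidney or liver disease: Pkd1, Pkd2, Pkhd1, Ganab, Prkcsh, Sec63, Dnajb11, Alg9 and Dzip1l. They were taken by gene symbol from the 54532 genes of 1 table of RNA-seq counts, and all 9 passed the filter on low counts. The table holds 24 libraries of whole kidney from 18-day-old mice on a C57BL/6 J background, 1 library per mouse, in 6 groups. Every mouse carried on 1 Pkd1 allele the missense hypomorphic RC mutation, which lowers the amount of mature polycystin-1. In RC/+ mice (n = 3) the other allele was floxed and intact. In RC/- mice (n = 5) that allele was inactivated by Cre under the Ksp promoter, which is active in kidney tubules, so the kidneys were cystic and RC/- cannot be told apart from the presence of Cre. In the D18 and D53 mice the RC allele had also lost the miR-17 motif of its 3′ UTR, as edited with CRISPR in a single founder per line (founder 3 for D18, founder 2 for D53). This gave RC/+ D18 and RC/+ D53 (n = 3 each, labelled as controls) and RC/- D18 and RC/- D53 (n = 5 each, labelled cystic). The study reports that cystic disease was nearly absent in the edited RC/- mice at this age. For these 2 groups cystic is therefore only the label.

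The proteins act at the cilium or on the way to it. Pkd1 and Pkd2 encode polycystin-1 and polycystin-2, which assemble into a receptor-channel complex of the primary cilium and whose loss causes the dominant kidney disease. Pkhd1 encodes fibrocystin, the large ciliary membrane protein mutated in recessive polycystic kidney disease. Ganab, Prkcsh, Sec63, Dnajb11 and Alg9 act in the endoplasmic reticulum (ER), where polycystin-1 is inserted into the membrane, N-glycosylated and folded: Alg9 is a mannosyltransferase that builds the glycan precursor, Sec63 helps proteins through the translocon, Ganab and Prkcsh are the catalytic and the non-catalytic subunit of glucosidase II, and Dnajb11 is a cochaperone of BiP. Dzip1l lies at the transition zone at the base of the cilium. The microRNA miR-17 and its relatives silence mRNAs by pairing their seed, bases 2 to 8, with a matching motif in the 3′ UTR.

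The motif removed in the D18 and D53 lines is the match of that seed, and the sequences are shown because 3 of the 9 genes carry it. The mature strands (RefSeq, GRCm38.p6) share 1 seed, which is in capitals.

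mmu-miR-17-5p: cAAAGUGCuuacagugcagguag
mmu-miR-20a-5p: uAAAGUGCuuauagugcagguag
mmu-miR-93-5p: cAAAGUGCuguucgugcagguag
mmu-miR-106b-5p: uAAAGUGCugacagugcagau

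The complement of the seed, GCACTTT, was searched on the sense strand of the longest annotated 3′ UTR of each gene (GENCODE M21, GRCm38). It was present once in Pkd1, once in Pkd2 and once in Sec63, and not in the other 6 genes. Of 21014 genes with an annotated 3′ UTR, 11.8% held at least 1 match. The 26 bases around each match are printed on the sense strand, with the match in capitals.

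Pkd1, chr17:24595721-24595746, plus strand, 3′ UTR in exon 46: atggggcttctGCACTTTaaaaaggc
Pkd2, chr5:104503810-104503835, plus strand, 3′ UTR in exon 15: tataattttctGCACTTTaatttatt
Sec63, chr10:42829880-42829905, plus strand, 3′ UTR in exon 21: atacaaaggagGCACTTTtgtattca

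In Pkd1 and Pkd2 the match was followed by A, and in Sec63 by T. A match is a description of the sequence and was not tested as a binding site. The promoters of the 9 genes (250 bases before to 50 bases after the start, RefSeq) were also searched on both strands for the ER stress response element, which reads CCAAT, any 9 bases and CCACG. None of the 9 held these letters, which occurred in 0.119% of 32851 promoters and in 7 of the 21 other ER chaperone and unfolded protein response genes with a promoter in the table.

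The lowest total was 20379982 and the highest 30837488 counts per library, and the rarest of the 9 genes, Alg9, had 475 to 894 counts per library and Ganab and Pkd2 up to 7865 and 7886. Values are given as CPM, each count divided by the total of its library and scaled to a common total. Cell type markers differed between RC/- and RC/+ kidneys, and their part in the results on the 9 genes was not tested. Summed CPM of 10 proximal tubule markers was 15513 to 16664 in RC/+ and 4387 to 8651 in RC/- kidneys, with 10 of 10 lower, while that of 12 collecting duct markers was 1393 to 1668 and 2813 to 5200.0, with 8 higher and 3 lower, and that of 8 macrophage markers was 258 to 279.7 and 575 to 1041, with 8 of 8 higher. No gene of these lists was at 0 in all libraries. In whole kidney, fewer cells of a type and less RNA per cell cannot be told apart. Skeletal muscle genes, at 5.27 to 9.36 summed CPM in 16 libraries, reached 146.7 to 194 in libraries 20 to 27, which are 3 of the RC/- D18 and all 5 of the RC/- D53 mice.

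Per kilobase of exon, the genes of the ER pathway included the most abundant of the 9 and Pkd1 was the least abundant. Mean level over the 24 libraries was 45.6 CPM per kilobase for Ganab, 41.4 for Dnajb11, 32.8 for Prkcsh, 24.02 for Pkd2, 13.3 for Pkhd1, 12.7 for Sec63, 6.79 for Alg9, 6.08 for Dzip1l and 3.31 for Pkd1. Across libraries the ranges of Ganab (39.1 to 50.5) and Dnajb11 (34.00 to 47.8) overlapped, as did those of Dnajb11 and Prkcsh (30.5 to 36.5), of Pkhd1 (10.7 to 18.2) and Sec63 (10.9 to 15.3), and of Alg9 (5.41 to 8.73) and Dzip1l (4.89 to 7.66). Pkd2 (20.6 to 26.8) stood apart from its neighbours in this order, and so did Pkd1 (2.21 to 4.10). Even so, Pkd1 was above 72.01% of the 35170 genes with counts and a length. Ganab and Prkcsh each overlapped with Dnajb11 but not with each other.

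**Figure D1:**
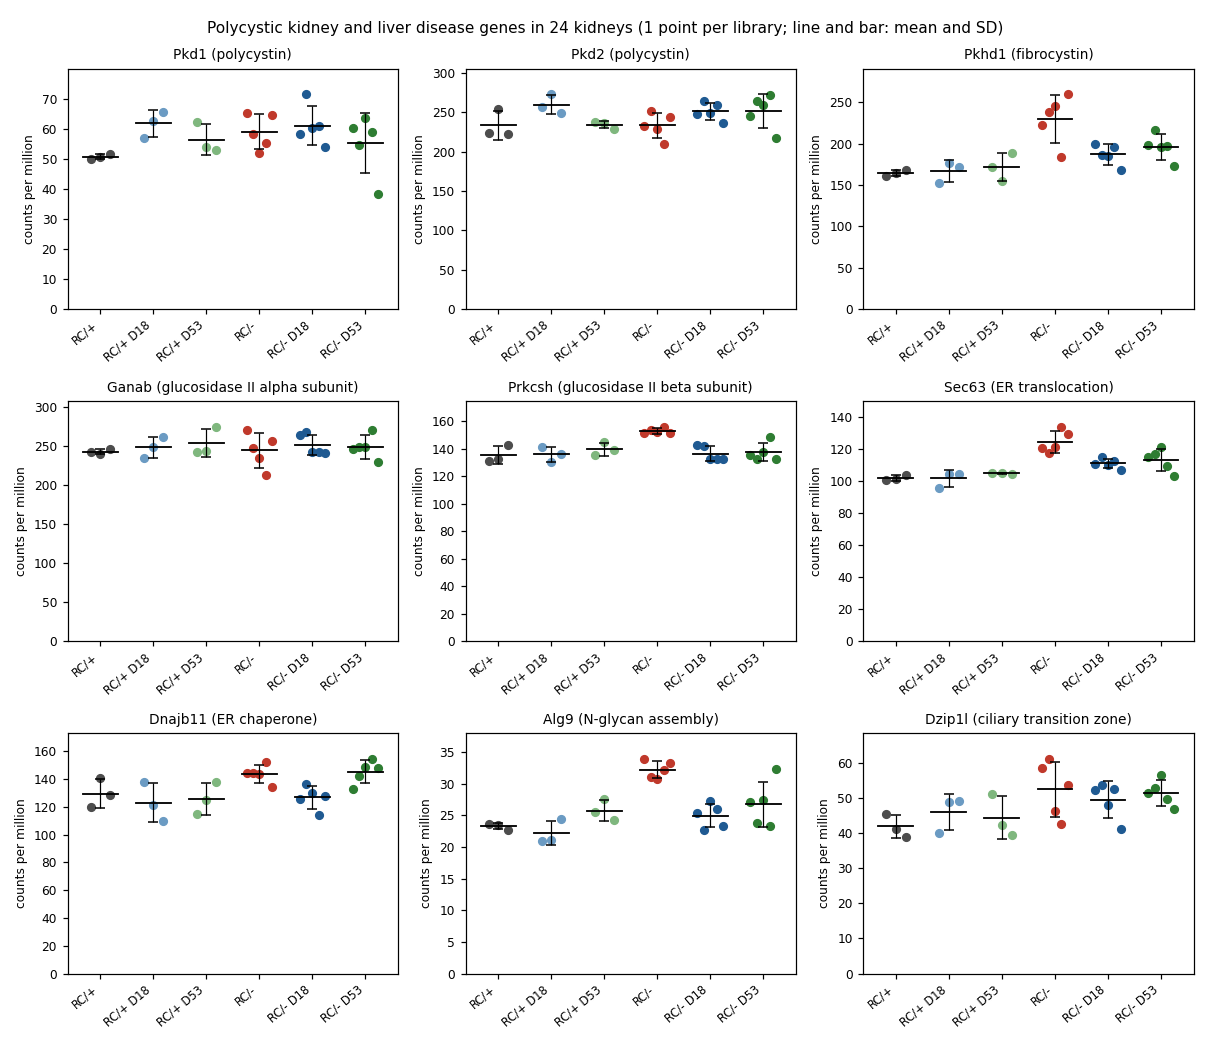
Levels in CPM (vertical axes, from 0) of the 9 genes in the 6 groups. Each point is 1 library and the line and bar are mean and SD (n = 3 for RC/+ groups, n = 5 for RC/- groups). In RC/- kidneys Alg9 (30.7 to 33.9) lay above every RC/+ kidney (22.8 to 23.6), while Pkd2 and Ganab overlapped.

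Pkd1 (ENSMUSG00000032855, chr17:24549834-24596508, plus strand), the gene mutated in all mice, was compared first. Its level was 49.9, 50.7 and 51.5 CPM in the 3 RC/+ kidneys and 65.2, 58.3, 51.95, 55.1 and 64.4 CPM in the 5 RC/- kidneys. On total counts all RC/- values lay above all RC/+ values, though the closest were 51.5 and 52.0. The log2 fold change was 0.21 (95% interval -0.035 to 0.46), which did not pass the test (adjusted p = 0.173, limma with Benjamini-Hochberg adjustment over 22570 genes). Trimmed mean of M values (TMM) factors, which set the typical gene to no change, were 0.95 to 0.99 in RC/+ and 1.05 to 1.10 in RC/- libraries. They lower RC/- values relative to RC/+ values, so the separation of Pkd1 holds on total counts only. Pkd1 was not called with TMM factors either. In RC/- kidneys the Pkd1 count sums the RC allele, the floxed allele in cells where Cre was not active, and any transcript left from the inactivated allele. It does not measure 1 allele.

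In the edited lines Pkd1 was 56.9, 62.7 and 65.6 CPM in RC/+ D18 and 62.3, 54.02 and 52.8 CPM in RC/+ D53 kidneys, above each of the 3 RC/+ kidneys in both lines. In D18 the groups did not overlap for 9.95% of all genes, and in D53 for 8.84%. The log2 fold changes against RC/+ were 0.28 (0.0039 to 0.56, unadjusted p = 0.0471, adjusted p = 0.983, limma) and 0.15 (-0.13 to 0.43, adjusted p = 1), so neither passed. Among the cystic kidneys Pkd1 was 58.1, 71.4, 60.2, 61.03 and 53.8 CPM in RC/- D18 and 60.2, 54.7, 63.5, 58.95 and 38.4 CPM in RC/- D53. Both groups overlapped with RC/-, and the log2 fold changes against it were 0.045 (-0.17 to 0.26) and -0.11 (-0.33 to 0.10), with adjusted p = 0.766 and 0.462 in limma. From RNA-seq the study reports higher usage of the RC allele in edited than in unedited RC/- kidneys, and more polycystin-1 on immunoblots. These summed counts measure neither. The lowest Pkd1 value of all 24 libraries, 38.4, belonged to RC/- D53 replicate 27. Tsc2 overlaps 3.98% of the exon bases of Pkd1 on the opposite strand, and the strand setting of the counting is not given in the sources used here.

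Pkd2 (ENSMUSG00000034462, chr5:104459450-104505819, plus strand), the channel partner of polycystin-1, was 224, 255 and 222 CPM in RC/+ and 232, 252, 229, 210.0 and 244 CPM in RC/- kidneys. The groups overlapped and their means were 233 ± 18.5 (SD, n = 3) and 233 ± 15.9 (SD, n = 5). The log2 fold change was -0.00051 (-0.15 to 0.15, adjusted p = 0.996, limma). Pkd2 was 248, 265, 249, 259 and 236 CPM in RC/- D18 and in RC/- D53 245, 265, 259, 272 and 217 CPM, and both groups overlapped with RC/-. Against RC/- the log2 fold changes were 0.11 (adjusted p = 0.174, limma) and 0.11 (adjusted p = 0.212). These were the values on total counts. With trimmed mean of M values (TMM) factors, which set the typical gene to no change, they became 0.23 (adjusted p = 0.00709, limma) and 0.20 (adjusted p = 0.0250) and passed.

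Pkhd1 (ENSMUSG00000043760, chr1:20057779-20618064, minus strand) gave, with Alg9, the largest difference of the 9 between cystic and noncystic kidneys. Its level was 162, 164 and 168 CPM in RC/+ and 222, 238, 246, 185 and 259.7 CPM in RC/- kidneys. The groups did not overlap, and the lowest RC/- value, 185, was replicate 16. Pkhd1 rose 1.39-fold (log2 0.47, SE 0.092, adjusted p = 0.000226, limma). Its level was 199, 186, 186, 196 and 168 CPM in RC/- D18 kidneys and in RC/- D53 199, 217, 196, 198 and 173 CPM, so that both edited cystic groups overlapped with RC/- in its replicate 16 alone. Pkhd1 fell to 0.82-fold of RC/- in RC/- D18 (log2 -0.29, adjusted p = 0.00471, limma) and to 0.86-fold in RC/- D53 (log2 -0.22, adjusted p = 0.0377). The D53 call was lost without any 1 of RC/- replicates 14, 15 or 17 or RC/- D53 replicates 23, 25, 26 or 27, with an adjusted p up to 0.597 over the alternatives. Fibrocystin is found in collecting duct and thick limb. The summed CPM of the 12 collecting duct markers moved with Pkhd1, at 1712 to 2097 in RC/- D18 and 2119 to 3404 in RC/- D53. The latter range overlapped with that of RC/- (2813 to 5200.0). The single markers were split: against RC/-, 7 were called lower and 3 higher in D18, and 5 lower and 3 higher in D53. Thick ascending limb and distal tubule markers moved the other way, at 6316 to 7179.6 in RC/+, 2153 to 3998 in RC/-, 5879 to 7691 in RC/- D18 and 3658 to 7365 in RC/- D53.

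Alg9 (ENSMUSG00000032059, chr9:50775019-50843542, plus strand), which adds mannose to the lipid-linked glycan, was 23.6, 23.4 and 22.8 CPM in RC/+ and 33.9, 31.1, 30.7, 32.2 and 33.2 CPM in RC/- kidneys. The gap between the groups was wide compared with the spread within each. Alg9 rose 1.38-fold (log2 0.47, SE 0.091, adjusted p = 0.000235, limma). Alg9 was 25.3, 22.8, 27.2, 26.03 and 23.4 CPM in RC/- D18, below every RC/- kidney, and in RC/- D53 27.05, 23.9, 27.4, 23.3 and 32.3 CPM. Of the D53 values only replicate 27 reached the RC/- range, the same library that was lowest for Pkd1. Alg9 fell to 0.77-fold of RC/- in RC/- D18 (log2 -0.37, adjusted p = 0.000510, limma) and to 0.83-fold in RC/- D53 (log2 -0.28, adjusted p = 0.00960). A protein-coding gene on the opposite strand, 1110032A03Rik, shares 12.9% of the exon bases of Alg9 and had 571 to 1069 counts per library, so reads of the 2 may not be separated.

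Sec63 (ENSMUSG00000019802, chr10:42761496-42832514, plus strand), the J-domain partner of the translocon, was 101, 101 and 104 CPM in RC/+ and 121, 118, 121, 134 and 129 CPM in RC/- kidneys, with no overlap. It rose 1.22-fold (log2 0.29, SE 0.058, adjusted p = 0.000330, limma). Sec63 was 111, 115, 109.9, 113 and 107 CPM in RC/- D18 and in RC/- D53 115, 117, 121, 109 and 103 CPM. It fell against RC/- by 0.16 on the log2 scale in D18 (adjusted p = 0.0108, limma) and by 0.14 in D53 (adjusted p = 0.0384). The D53 call was lost without any 1 of RC/- replicates 16 or 17 or RC/- D53 replicates 23, 26 or 27. Of the 3 genes with a miR-17 seed match in the 3′ UTR, Sec63 was called in these 3 comparisons on total counts and Pkd1 and Pkd2 were not. Against RC/- this turned with the scaling. With TMM factors Pkd2 was called higher in RC/- D18 (0.23) and RC/- D53 (0.20), and Sec63 was called in neither. The count models edgeR and DESeq2, and scaling by the size factors of DESeq2, gave the same calls for these genes. In RC/- against RC/+ Sec63 stayed called under all of them. On total counts the calls also turned in RC/- D53 against RC/- without RC/- D53 replicate 27. Pkd2 was then called higher (0.16, adjusted p = 0.0405, limma) and Sec63 was not called.

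Of the 2 subunits of glucosidase II, Prkcsh was called and Ganab was not, and the difference between them is tested as a ratio further on. Prkcsh (ENSMUSG00000003402, chr9:22002806-22014222, plus strand), the beta subunit that recognises the glycan and keeps the enzyme in the ER, was 131, 132 and 143 CPM in RC/+ and 151, 154, 153, 156 and 151 CPM in RC/- kidneys. On total counts the 5 RC/- values spanned only 151 to 156 and lay above all RC/+ values. Prkcsh rose 1.13-fold (log2 0.18, SE 0.053, adjusted p = 0.0114, limma), a call lost with TMM factors and without RC/+ replicate 4 or 5. It was 143, 142, 132, 132 and 133 CPM in RC/- D18 and 136, 133, 138, 148 and 133 CPM in RC/- D53, below every RC/- kidney on total counts. It fell against RC/- by 0.17 on the log2 scale in D18 (adjusted p = 0.00539, limma) and by 0.16 in D53 (adjusted p = 0.0121). Both calls were lost with TMM factors. Ganab (ENSMUSG00000071650, chr19:8898071-8916672, plus strand), the catalytic alpha subunit, was 242, 240.1 and 247 CPM in RC/+ and 271, 248, 235, 213 and 257 CPM in RC/- kidneys, where the values lay on both sides of RC/+. Its log2 fold change of 0.0053 (-0.14 to 0.15) did not pass in limma (adjusted p = 0.966) and was -0.13 with TMM factors (adjusted p = 0.114). In the edited cystic kidneys Ganab ranged from 230 to 271.5 CPM, with log2 fold changes against RC/- of 0.043 in D18 and 0.027 in D53.

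Dnajb11 (ENSMUSG00000004460, chr16:22857845-22879634, plus strand), the BiP cochaperone, was 129 ± 10.5 CPM in RC/+ (SD, n = 3) and 144 ± 6.57 CPM in RC/- kidneys (SD, n = 5), a log2 fold change of 0.15 that did not pass (adjusted p = 0.127, limma). RC/- D18 kidneys held 125, 137, 130.2, 114 and 128 CPM and RC/- D53 kidneys 133, 142, 149, 155 and 148 CPM. Against RC/- Dnajb11 fell by 0.18 on the log2 scale in D18 (adjusted p = 0.0322, limma) and gave 0.014 in D53 (adjusted p = 0.907). The D18 call was lost in each of 6 fits that left out 1 library (RC/- replicates 13, 14, 15 and 16 and RC/- D18 replicates 18 and 21), with an adjusted p over all alternatives of up to 0.530. The difference between the 2 edited lines was not tested.

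Dzip1l (ENSMUSG00000037784, chr9:99629496-99669256, plus strand), the transition zone gene, was 45.4, 41.2 and 39.02 CPM in RC/+ and 58.5, 61.2, 46.2, 42.7 and 53.7 CPM in RC/- kidneys. The groups overlapped only through RC/- replicate 16, at 42.7. Dzip1l rose 1.24-fold on total counts (log2 0.31, SE 0.11, adjusted p = 0.0337, limma), and the call was lost without any 1 of RC/+ replicates 5 or 6 or RC/- replicates 13, 14 or 17, with an adjusted p of up to 0.212 over the alternatives. Dzip1l ranged in RC/- D18 and RC/- D53 from 41.1 to 56.5 CPM and gave log2 fold changes against RC/- of -0.075 and -0.017, with adjusted p = 0.587 and 0.925 in limma.

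Of the 9 genes, 5 were called in RC/- against RC/+, all higher, where 37.6% of the 22570 genes tested were called and 25.5% were called higher. Against RC/-, 5 were called in RC/- D18, all lower, with 41.2% of all genes called and 26.9% called lower. In RC/- D53 4 were called against RC/-, all lower, with 30.2% of all genes called and 18.9% called lower. These shares of all genes are the background to the counts, and the 9 were not tested as a list. The median log2 fold change of the 9 was 0.21 beside 0.14 for all genes in RC/- against RC/+, -0.16 beside -0.10 in D18 and -0.11 beside -0.081 in D53. The latter 2 comparisons and the first share the RC/- libraries, so their directions are not independent. Groups did not overlap for 5 of the 9 in RC/- against RC/+ (37.6% of all genes), for 3 in RC/- D18 against RC/- (27.8%) and for 1 in RC/- D53 against RC/- (18.8%). Overlap was counted on total counts only and not repeated with TMM factors.

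Several of these calls depended on how the libraries were scaled. In RC/- against RC/+ the median gene stood at a log2 fold change of 0.14 on total counts and 0.012 with TMM factors. Over all genes 5753 were called higher and 2744 lower on total counts, and 3844 higher and 3896 lower with TMM factors. With TMM factors 3 of the 9 genes were called: Pkhd1 (log2 0.33, adjusted p = 0.00394), Alg9 (0.33, adjusted p = 0.00485) and Sec63 (0.15, adjusted p = 0.0384), all in limma. Prkcsh (0.035, adjusted p = 0.690) and Dzip1l (0.17, adjusted p = 0.212) no longer passed. In RC/- D18 against RC/- the TMM calls were Alg9 (-0.25, adjusted p = 0.00955), lower, and Pkd2 and Ganab (0.16, adjusted p = 0.0249), higher, while Pkhd1 (-0.17, adjusted p = 0.0697), Prkcsh, Sec63 and Dnajb11 were lost. In RC/- D53 against RC/- only Pkd2 was called, and Alg9 gave -0.19 (adjusted p = 0.0687). With libraries 20 to 27 as a covariate, Alg9 alone was still called in D18 (log2 -0.42, adjusted p = 0.00391) and no gene of the 9 in D53. Under that covariate 27.5% of the genes tested were called in D18 and 7.96% in D53. Every RC/- D53 library is among libraries 20 to 27, and only RC/- D18 has libraries on both sides. The covariate was thus estimated from RC/- D18 alone, and in D53 the edited group cannot be told apart from these libraries.

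**Figure D2:**
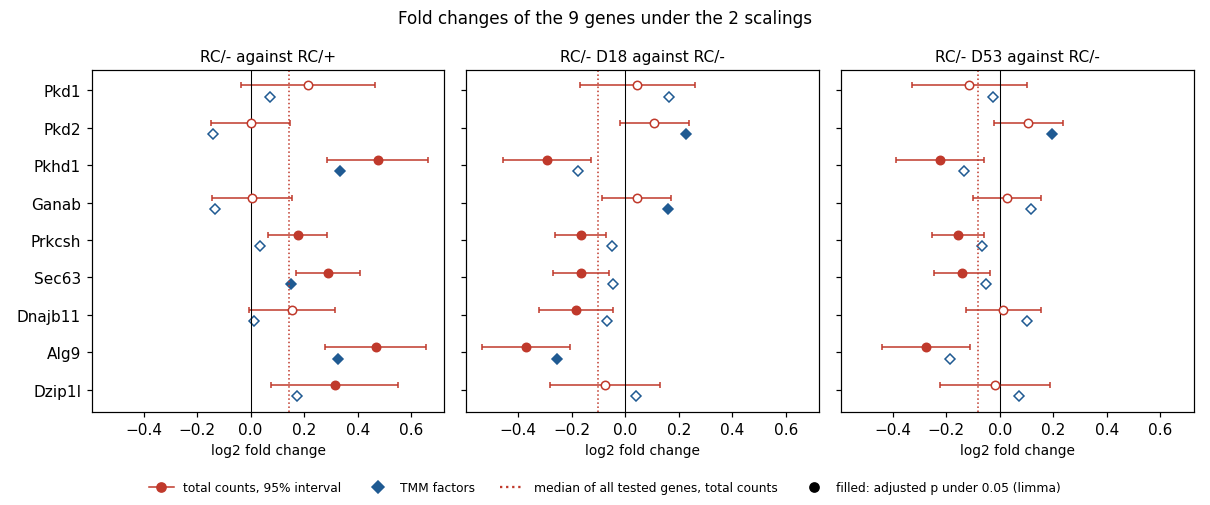
Log2 fold change of each gene in 3 comparisons. Circles with bars are limma estimates on total counts with 95% intervals, diamonds are the estimates with TMM factors, filled symbols have an adjusted p under 0.05, and the dotted line is the median of all tested genes on total counts (0.14, -0.10 and -0.081). Pkhd1, Alg9 and Sec63 stayed filled under both scalings in RC/- against RC/+.

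In the noncystic kidneys none of the 9 was called for the deletion of the motif. In RC/+ D18 against RC/+, 0.00443% of genes were called and 1 of the 9, Pkd1, had an unadjusted p under 0.05, as had 4.49% of all genes. In RC/+ D53 against RC/+ the share called was 0% and none of the 9 had an unadjusted p under 0.05, against 2.33% of all genes. Log2 fold changes other than that of Pkd1 ran from -0.076 to 0.15 in D18 and from -0.043 to 0.14 in D53. Sec63 and Alg9 were, like Pkd1, higher in all 3 RC/+ D53 than in all 3 RC/+ kidneys, a comparison in which 8.84% of all genes did not overlap and 4.95% did so with the edited group higher. These comparisons have 3 mice a group, and a missed threshold does not show that the levels were the same.

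Within the edited lines, RC/- kidneys, whose cystic disease the study reports as nearly relieved, were set against RC/+ kidneys of the same line. None of the 9 was called in RC/- D18 against RC/+ D18, where 0.266% of genes were called, nor in RC/- D53 against RC/+ D53, where 2.6% were and 2.45% were called higher. An unadjusted p under 0.05 was reached by Sec63 in D18 (0.13, adjusted p = 0.512, limma) and by Pkhd1 (0.19, adjusted p = 0.370) and Dnajb11 in D53. At that threshold stood 8.91% of the genes tested in the D18 line and 13.3% in the D53 line. All 5 RC/- D18 kidneys lay above the 3 RC/+ D18 kidneys for Sec63, and the groups did not overlap for 5.76% of all genes. For Pkhd1 the estimate in D18 was 0.16 (-0.028 to 0.35), and for Alg9 the estimates were 0.17 (-0.019 to 0.36) in D18 and 0.048 (-0.14 to 0.24) in D53. Pkd1 gave -0.023 and -0.049. All RC/- D53 and no RC/+ D53 libraries are among libraries 20 to 27, so the D53 comparison cannot be told apart from them. With those libraries as a covariate 1.27% of all genes were called in it.

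Whether the difference between RC/- and RC/+ kidneys was smaller in an edited line than without the edit was tested as an interaction. In the D53 line Alg9 alone was called (-0.42, SE 0.13, adjusted p = 0.0363, limma), against 11.3% of all genes called and 6.55% called lower, and 4 of the 9 had an unadjusted p under 0.05, as had 25.6% of all genes. In the D18 line none was called, with 17.1% of all genes called, 6.31% higher and 10.8% lower, and 3 had an unadjusted p under 0.05, as had 29.5% of all genes: Pkhd1 (-0.31, adjusted p = 0.106), Alg9 (-0.30, adjusted p = 0.120) and Prkcsh. For Pkhd1 the D53 estimate was -0.28 (adjusted p = 0.172), and without RC/- replicate 16 it was called in both lines (-0.39, adjusted p = 0.0201 in D18 and -0.36, adjusted p = 0.0442 in D53, limma). The Alg9 interaction in D53 was lost with TMM factors (adjusted p = 0.112, limma) and without any 1 of 10 libraries, with an adjusted p of up to 0.134 over the alternatives. Libraries 20 to 27 hold all RC/- D53 kidneys and none of the RC/+ D53, RC/- or RC/+ kidneys. The D53 interaction therefore cannot be told apart from those libraries. With them as a covariate 1.79% of all genes were called in the D53 interaction and 10.4% in that of D18.

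Ratios of 2 genes within a library do not depend on how libraries are scaled. The log2 ratio of Pkd1 to Pkd2 counts was -2.20 ± 0.115 (SD, n = 3) in RC/+ and -1.99 ± 0.133 (n = 5) in RC/- kidneys, a linear ratio of 0.217 and 0.252. It ran from -2.33 to -2.11 and from -2.14 to -1.83, and the difference of 0.21 did not pass (exact permutation test, two-sided, p = 0.0714, adjusted p = 0.191 over 15 tests). In RC/- D53 the ratio was -2.21 ± 0.198, where replicate 27 was lowest at -2.50.

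The log2 ratio of Pkd1 to Pkhd1 was -1.70 ± 0.00722 in RC/+ and -1.96 ± 0.206 in RC/- kidneys, with no overlap (-1.71 to -1.69 and -2.24 to -1.74). The difference was -0.26 (exact permutation test, p = 0.0357, adjusted p = 0.134). The ratio in RC/- D18 was -1.62 ± 0.148, 0.34 above RC/- (exact permutation test, p = 0.0238, adjusted p = 0.119), and in RC/- D53 it was -1.85 ± 0.224, 0.11 above (exact permutation test, p = 0.397, adjusted p = 0.541).

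The log2 ratio of Ganab to Prkcsh counts, the 2 subunits of glucosidase II, was 0.84 ± 0.0487 in RC/+ and 0.67 ± 0.150 in RC/- kidneys. The RC/- values were the most spread of any group, from 0.45 to 0.84, with the lowest in replicate 16. RC/- D18 kidneys had a ratio of 0.88 ± 0.0204, and all 5 values lay above all RC/- values (difference 0.21, exact permutation test, p = 0.00794, adjusted p = 0.119, where the raw value is the smallest that 5 against 5 allows). In RC/- D53 it was 0.86 ± 0.0418 (difference 0.18, exact permutation test, p = 0.0159, adjusted p = 0.119). No ratio in any of the 5 comparisons passed after adjustment over the 15 tests, and the smallest adjusted p was 0.119.

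**Figure D3:**
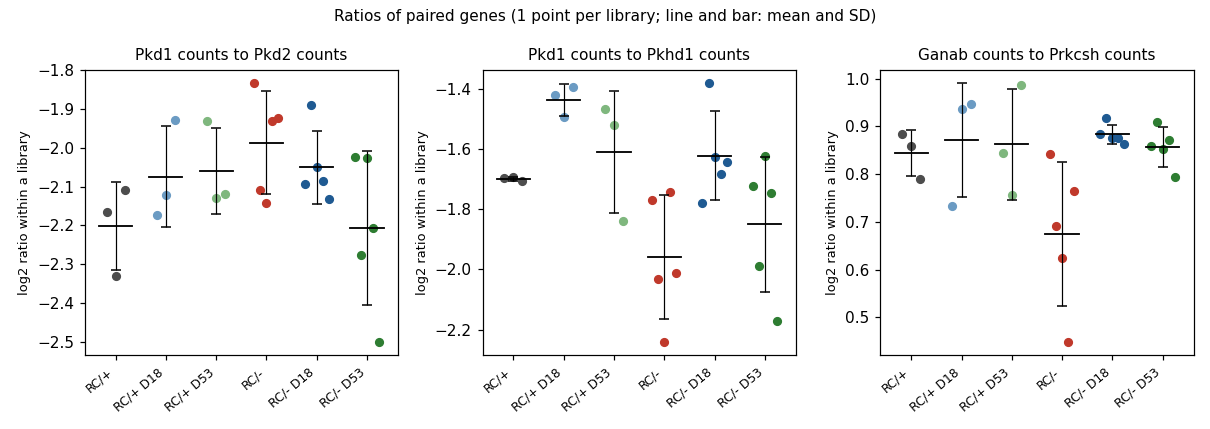
Log2 ratios of counts within a library (vertical axes; they do not start at 0) for 3 pairs of genes in the 6 groups, 1 point per library, with mean and SD. In RC/- D18 the Ganab to Prkcsh ratio lies between 0.86 and 0.92, above the 5 RC/- values.

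The genes that work next to the 9 were counted in 8 lists, and each count is read beside the 37.6%, 41.2% and 30.2% of all genes called in the 3 comparisons. Of 20 other genes of N-glycan assembly, 6 rose and 1 fell in RC/- against RC/+, 6 fell in D18, and 1 rose and 1 fell in D53 against RC/-. The largest rises were Alg13 (log2 0.63), a subunit of the transferase that adds N-acetylglucosamine to the growing glycan, and Dpm2 (0.38), a subunit of dolichol phosphate mannose synthase, and Dolk (-0.33), the dolichol kinase, fell. Of 12 oligosaccharyltransferase genes, whose products move the finished glycan to the protein, 2 rose and 1 fell. Tmem258 (0.43) and Krtcap2 (0.33) rose, while Magt1 fell by 0.51 on the log2 scale, from 132 ± 4.73 CPM in RC/+ to 92.9 ± 5.47 CPM in RC/- kidneys. Of the 12, 8 fell and 1 rose in RC/- D18 against RC/-.

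Of 18 translocon and signal peptidase genes, which work beside Sec63, 8 rose and 2 fell in RC/- against RC/+, and 11 fell and 1 rose in RC/- D18 against RC/-. Sec61b, a subunit of the channel, rose from 44.03 ± 1.02 to 65.9 ± 8.70 CPM (log2 0.57), and Tram2 gave 0.50. Sec62, the membrane partner of Sec63, moved against it: it fell by 0.23 on the log2 scale in RC/- against RC/+ and rose by 0.23 in D18 and 0.23 in D53 against RC/-. The signal peptidase subunit Spcs3 also fell in RC/- against RC/+ (-0.27). In D53, 2 genes of the list rose and 3 fell.

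Of 14 genes of glycan trimming and the lectin chaperone cycle, which follow glucosidase II, 3 rose and 2 fell in RC/- against RC/+. Edem2 (0.33) and Man1b1 (0.25), which trim mannose, rose, and the lectins Lman1 (-0.22) and Mlec (-0.25) fell. In D18 2 rose and 3 fell, and in D53 1 rose and 2 fell. Of 26 ER chaperone and unfolded protein response genes, 5 rose and 3 fell. Trib3 (0.88), a pseudokinase induced by ER stress, and the transcription factor Xbp1 (0.50) rose, and Herpud1 (-0.69), of ER-associated degradation, and Dnajc3 (-0.35), an inhibitor of the stress kinase PERK, fell. In D18 3 rose and 8 fell, and in D53 3 rose and 4 fell.

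Of 18 other transition zone genes, 4 rose and none fell in RC/- against RC/+, while 4 fell in D18 and 3 in D53. B9d1 rose from 17.6 ± 2.48 to 28.8 ± 1.82 CPM (log2 0.71), and Nphp4 gave 0.60. Of 10 further genes of cystic kidney or liver disease, 3 rose in RC/- against RC/+ and none fell, 1 rose and 4 fell in D18, and 2 fell in D53. Bicc1, an RNA-binding protein whose loss causes cysts in mice, was 244 ± 18.97 CPM in RC/+ and 382 ± 62.9 CPM in RC/- kidneys (log2 0.64), and Sec61b is also in this list. Of 7 paralogs of polycystins and fibrocystin, Pkd2l2 (0.40) rose in RC/- against RC/+ and 1 gene fell in D18. Medians of the 8 lists in RC/- against RC/+ ran from -0.0020 for the paralogs to 0.16 for the translocon, beside 0.14 for all genes. Under TMM factors the calls for Edem2, Man1b1, Krtcap2 and Pkd2l2 were lost, and every other gene named from these lists kept its direction and its call in RC/- against RC/+.

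The balance of higher and lower calls within the lists depended on the scaling. With TMM factors, 2 of the 20 N-glycan assembly genes were called higher and 3 lower in RC/- against RC/+, 1 and 1 of the 12 oligosaccharyltransferase genes, 3 and 3 of the 18 translocon and signal peptidase genes, and 4 and 5 of the 26 ER chaperone and unfolded protein response genes. Of the 14 genes of glycan trimming and the lectin cycle none was then higher and 4 were lower, and of the 18 transition zone genes 2 were higher and none lower. Of the 10 other cystic disease genes 2 were higher and 1 lower, and of the 7 paralogs none was called. The TMM calls in RC/- D18 against RC/- were 3 higher and 5 lower for the translocon list, 1 and 4 for the oligosaccharyltransferase, 3 and 2 for N-glycan assembly, 4 and 1 for the lectin cycle, and 5 and 2 for the ER chaperones. In RC/- D53 against RC/- they were 6 higher and 1 lower for the lectin cycle and 4 and 1 for the ER chaperones.

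The list counts against RC/- also moved with libraries 20 to 27, those with skeletal muscle genes. With these libraries as a covariate, 2 translocon genes were called higher and 4 lower in RC/- D18 against RC/-, 1 and 2 oligosaccharyltransferase genes, 1 N-glycan assembly gene lower, 2 lectin cycle genes lower, 3 and 4 ER chaperone genes, 1 transition zone gene lower, 2 and 2 of the other cystic disease genes and no paralog. Only 1 oligosaccharyltransferase gene and 1 ER chaperone gene were then called in RC/- D53 against RC/-, both higher, and no gene of the other 6 lists. All RC/- D53 libraries are among libraries 20 to 27, so these D53 counts do not separate the edit from those libraries. With 1 library left out, the number of transition zone genes called in RC/- against RC/+ ran from 1 to 5 (2 without RC/+ replicate 4, 1 without replicate 5) and that of lectin cycle genes from 2 to 5 (2 without RC/+ replicate 6, 3 without RC/- replicate 17), and no paralog was called without RC/+ replicate 6. In RC/- D18 against RC/- the other cystic disease genes ran from 3 to 6 (3 without RC/- replicate 13 or 14 or RC/- D18 replicate 20 or 22), transition zone genes from 2 to 5 (2 without RC/- replicate 14 or RC/- D18 replicate 22), and 2 paralogs were called without RC/- replicate 17. Oligosaccharyltransferase genes in RC/- D53 against RC/- ran from 1 to 6 (1 or 2 without RC/- replicate 15, 16 or 17 or RC/- D53 replicate 23, 24 or 25). Without RC/- D53 replicate 27 the counts there were 4 for N-glycan assembly, 5 for the lectin cycle, 8 for the translocon and 4 for the ER chaperones, and the last was also 4 without RC/- D53 replicate 26.

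**Figure D4:**
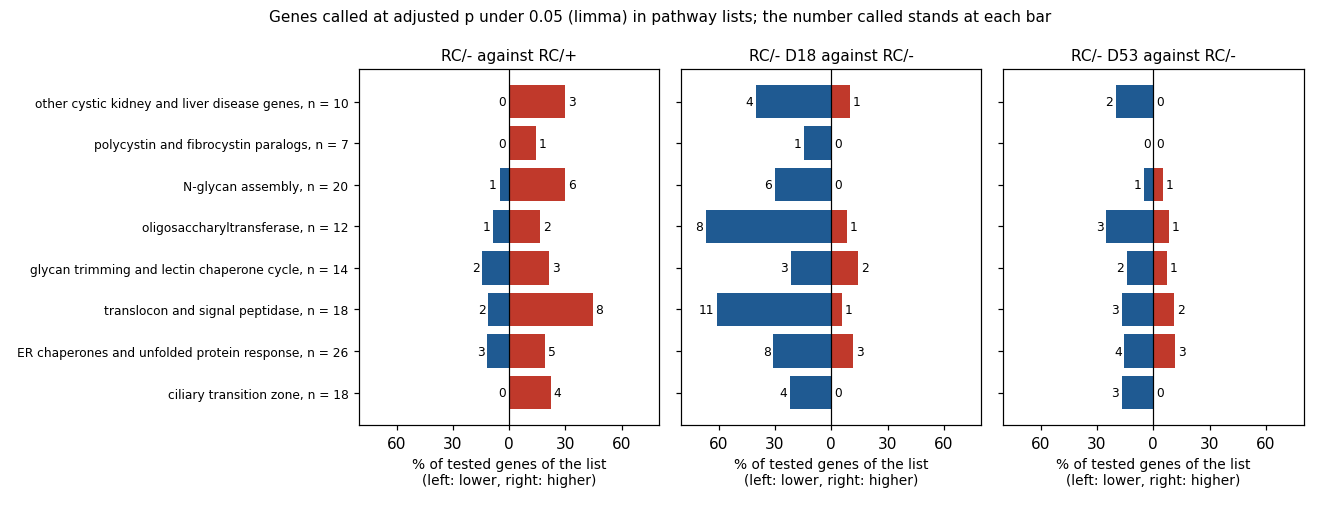
Share of each list's tested genes called higher (red, right) or lower (blue, left) at an adjusted p under 0.05 in limma on total counts, with the number called at each bar. A total of 11 of 18 translocon and signal peptidase genes and 8 of 12 oligosaccharyltransferase genes were lower in RC/- D18 against RC/-, and 4 and 2 with libraries 20 to 27 as a covariate. Of all genes 26.9% were called lower there on total counts, and the balance of higher and lower calls depended on the scaling.

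The genes whose levels followed the members most closely over the 24 libraries were named by the smallest root mean square difference of centred log2 CPM. For Pkd1, which itself varied by 0.178 around its mean, they were Ice1 (0.0929), Crybg3 (0.101) and Fgd6 (0.102). For Pkd2 (own variation 0.101) they were Slc39a9 (0.0539), Gopc (0.0558) and Aak1 (0.0653), and for Pkhd1 (0.201) Dync1li2 (0.0878), Ubtf (0.0916) and Uhrf1bp1 (0.0918). For Alg9 (0.203) they were Rcn2 (0.0827), Cdc42 (0.0833) and Pafah1b2 (0.0842), for Sec63 (0.117) Nmt1 (0.0539), Picalm (0.0560) and Retreg3 (0.0565), for Prkcsh (0.0813) Tmem115 (0.0568), March2 (0.0596) and Dhdds (0.0605) and for Dzip1l (0.182) Rnf111 (0.0909), Large2 (0.102) and Prrc2c (0.106). For these 7 genes, none of the 9 was among the 3 nearest. The libraries share group and depth, so these values only describe likeness in this table.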

How the data were processed

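RNA-seq was made from whole kidney of 24 mice in 6 groups. The deposited values are raw counts per gene for 54532 genes. As far as the authors' methods and processing notes say, reads were trimmed with Trim Galore 0.6.3 and aligned and counted per gene with STAR 2.5.3a on GRCm38 with Ensembl models. The strand setting is not given in the sources used here. Counts of both Pkd1 alleles are summed. Libraries held 20379982 to 30837488 counts, and their number and the spread between mice set the precision. Genes without a symbol held at most 0.0261% of a library. No 2 libraries of a group agreed within counting noise.

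From the counts, log2 CPM with a prior count of 2 was computed on total counts, genes with a mean log2 CPM under -3 were left out (22570 remained), and limma 3.58.1 (limma-trend, R 4.3.3) was fitted. The limma-trend test and this limit follow the study's methods. The prior count and the joint fit of all 6 groups without covariates were chosen here. P-values were adjusted by Benjamini-Hochberg over all genes, and a gene was called at an adjusted p under 0.05. This differs in test from the usual count model, which was run as an alternative with edgeR 4.0.16 and DESeq2 1.42.0. The model fit was tested on simulated data. Ratios of 2 genes were set side by side within each library and tested by exact permutation of the mice, two-sided. The other alternatives were TMM factors, DESeq2 size factors, other filters and prior counts, only the groups compared, sex or libraries 20 to 27 as a covariate, and leaving out each library. Sex was not taken from a label but read from expression, as female where Xist was above Ddx3y (14 libraries read as female, 10 as male).

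The text names the 9 genes, from each list the 2 largest increases and 2 largest decreases among genes called in RC/- against RC/+, and the 3 genes nearest to Pkd1, Pkd2, Pkhd1 and each of the 9 called there. The members and lists were chosen with earlier results of these data known.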

Additional observations from a re-analysis of the deposited data

Results flagged for a closer look

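On total counts, the difference between RC/- and RC/+ kidneys in Alg9 was called smaller in the D53 line than without the edit. That test called 11.3% of all genes. The interaction estimate was -0.42 on the log2 scale (adjusted p = 0.0363, limma over 22570 genes), from a log2 fold change of 0.47 in RC/- against RC/+ and of 0.048 in RC/- D53 against RC/+ D53. It kept its direction in all 26 alternatives, between -0.51 and -0.31, and passed the threshold in 11 of them. It did not pass with TMM factors, DESeq2 size factors, edgeR, DESeq2 or libraries 20 to 27 as a covariate. Those libraries hold all RC/- D53 kidneys and none of the RC/+ D53, RC/- or RC/+ kidneys. The D53 interaction therefore cannot be told apart from them, and with the covariate it called 1.79% of all genes. Among 36 tests for a library far from the rest of its group in the 9 genes and the 3 ratios, all in the 3 groups of 5 mice, none was past Dixon's limit, where chance gives about 1 in 20. Groups of 3 mice were not tested.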

How the results depend on the processing

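No called fold change of the 15 changed sign under any alternative, and 4 passed the threshold under every alternative: Alg9, Pkhd1 and Sec63 in RC/- against RC/+ and Alg9 in RC/- D18 against RC/-. In RC/- against RC/+, 3 of the 9 genes were called with TMM factors, DESeq2 size factors, edgeR and DESeq2, and 3 to 5 when 1 library was left out (3 without RC/+ replicate 5). In RC/- D18 against RC/-, 3 were called with TMM factors, DESeq2 size factors and edgeR. Of these only Alg9, lower, was also called on total counts, and Pkd2 and Ganab were called higher. DESeq2 called 4, the same 3 and Pkhd1, which was lower as on total counts. With libraries 20 to 27 as a covariate 1 was called, Alg9. In RC/- D53 against RC/-, 1 was called with TMM factors and edgeR, Pkd2, higher and not called on total counts. With DESeq2 size factors or DESeq2 2 were called, Pkd2 higher and Alg9 lower, and 2 with only the 2 groups, Prkcsh and Alg9, both lower. The count was 0 with libraries 20 to 27 as a covariate, which RC/- D53 cannot be told apart from. It was 2 to 4 when 1 library was left out (2 without RC/- replicate 17 or RC/- D53 replicate 23 or 26). The interaction of the D18 line gave 0 to 1 call (1, Pkhd1, without RC/- replicate 16). That of the D53 line gave 0 with TMM factors, DESeq2 size factors, edgeR, DESeq2 and the covariate, and 0 to 2 when 1 library was left out. The cause was not tested.

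Of the 66 uncalled fold changes 31 changed sign under at least 1 alternative, none of them past the threshold with the sign reversed. With TMM factors, DESeq2 size factors, edgeR and DESeq2, Ganab in RC/- against RC/+ was -0.13 in each, Dzip1l against RC/- was 0.042, 0.037, 0.032 and 0.029 in D18 and 0.071, 0.059, 0.055 and 0.049 in D53. With libraries 20 to 27 as a covariate, Dzip1l against RC/- was 0.029 in D18 and 0.16 in D53, Pkd1 was 0.032 in RC/- D53 against RC/-, 0.064 within D18 and 0.095 within D53, and Alg9 was -0.039 within D53. By medians the Ganab to Prkcsh ratio differed by -0.060 within D18 and 0.015 within D53.

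When 1 library was left out, RC/- against RC/+ ran from -0.035 to 0.064 for Pkd2 and from -0.033 to 0.054 for Ganab. RC/- D18 against RC/- ran from -0.014 to 0.088 for Pkd1 and from -0.0061 to 0.081 for Ganab. RC/- D53 against RC/- ran from -0.17 to 0.012 for Pkd1, -0.022 to 0.065 for Ganab, -0.011 to 0.045 for Dnajb11 and -0.088 to 0.042 for Dzip1l. Within D18 Pkd1 ran from -0.082 to 0.022, and within D53 from -0.11 to 0.076, with Alg9 from -0.021 to 0.10. The Pkd1 to Pkd2 ratio within D18 ran from -0.025 to 0.10, and the Ganab to Prkcsh ratio from -0.058 to 0.049 within D18 and from -0.058 to 0.057 within D53. A paired analysis was not run, because the sample labels name no litter and the groups share no replicate numbers. Any relation between littermates was thus not modelled.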
